A study of Mus musculus with 9 samples.

Results

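The H3K27ac peak list of adipocytes lacking Ets1 was compared with that of their floxed controls, 1 library against 1, across all protein-coding genes. The mark was called at 74682 regions in EAKO adipocytes and at 86834 in Flox adipocytes, which are 2 of the 9 libraries of the series. EAKO mice carried Ets1 f/f alleles, with loxP sites around exons 2 to 7, and adipoq-cre, a Cre driven by the promoter of the adiponectin gene and so active in fat cells that have matured. Flox mice were Ets1 f/f littermates without Cre, and therefore shared the floxed alleles with the EAKO mice. All were male C57BL/6J mice of 8 to 10 weeks, and the mature adipocytes were the floating fraction of digested inguinal white fat (iWAT). The mark was profiled by CUT&Tag, in which an antibody tethers a transposase to the marked chromatin. H3K27ac was not replicated, whether mice were pooled for a library is not given in the sources used here, and the study lists nearly equal read totals for both libraries. A difference between the lists is therefore a difference between 2 libraries, the genotype and the library cannot be told apart, and no test between the groups was made.

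Acetylation of histone H3 at lysine 27 marks active promoters and active enhancers. At promoters it flanks the transcription start site (TSS), most often in CpG islands, whereas distal marked regions lie in introns and between genes and vary far more between cell types. Ets1 is a transcription factor of the ETS family, whose members bind a GGAA core, and it can recruit histone acetyltransferases such as CBP and p300.

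A peak was called alone in a list when it shared no base with a peak of the other list. A promoter peak touched the 1 kb on either side of a TSS of a protein-coding gene, and every other peak was distal. Peak strength is the −log10 q that the peak caller assigned. It depends on the depth of its library, so values of both lists stand side by side without a ratio, and strength is mainly compared as the percentile of a peak within its own list. Where classes of −log10 q are used instead, the same cut need not be the same percentile in both lists. Intervals are Wilson 95% intervals. They cover counting error only.

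The strongest peaks alone in each list are shown first, as the 201 bp at the summit (genome build mm10, plus strand), because the 2 sets differ in their base composition. Among the strongest promoter peaks alone in EAKO adipocytes were those near Selenof (selenoprotein of the endoplasmic reticulum, chr3:144589648-144589848) and Tef (a clock output factor, chr15:81811892-81812092). Capitals mark CG dinucleotides.
Selenof: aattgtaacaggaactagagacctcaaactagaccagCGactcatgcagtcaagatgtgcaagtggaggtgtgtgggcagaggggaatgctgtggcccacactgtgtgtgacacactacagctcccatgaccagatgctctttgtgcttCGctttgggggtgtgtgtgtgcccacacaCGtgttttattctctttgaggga
Tef: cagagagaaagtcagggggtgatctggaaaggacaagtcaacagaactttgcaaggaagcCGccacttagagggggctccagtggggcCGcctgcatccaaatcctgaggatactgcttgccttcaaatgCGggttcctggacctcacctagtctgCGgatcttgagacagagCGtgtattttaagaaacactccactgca
The 3 strongest alone in Flox adipocytes lay at the promoter that Cox4i1 (a subunit of cytochrome c oxidase) shares with Emc8 (chr8:120668122-120668322), at Dgcr8 (microRNA processing, chr16:18289338-18289538) and at Lbr (the lamin B receptor, chr1:181842376-181842576).
Cox4i1: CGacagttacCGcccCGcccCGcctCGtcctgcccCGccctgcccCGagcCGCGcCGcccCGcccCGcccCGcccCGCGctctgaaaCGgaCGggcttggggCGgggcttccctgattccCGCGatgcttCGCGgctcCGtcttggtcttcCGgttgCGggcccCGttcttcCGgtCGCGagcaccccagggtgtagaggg
Dgcr8: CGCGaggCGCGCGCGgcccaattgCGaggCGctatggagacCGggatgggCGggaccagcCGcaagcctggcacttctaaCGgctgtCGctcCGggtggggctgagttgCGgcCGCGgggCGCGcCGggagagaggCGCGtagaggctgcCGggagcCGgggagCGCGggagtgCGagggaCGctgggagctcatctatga
Lbr: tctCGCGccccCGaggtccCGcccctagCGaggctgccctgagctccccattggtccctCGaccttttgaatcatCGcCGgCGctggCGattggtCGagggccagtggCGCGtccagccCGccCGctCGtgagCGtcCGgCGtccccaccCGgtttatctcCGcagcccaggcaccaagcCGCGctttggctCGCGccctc
The EAKO windows held 51.2% and 52.7% G and C with 3 and 5 CG dinucleotides. The Flox windows held 75.6%, 73.1% and 71.1% with 29, 28 and 25. Other EAKO promoter peaks alone were GC-rich too, as at Tatdn2 (66.7% with 24) and Ebf2 (70.6% with 20). Over all promoter peaks alone, the median G and C was 54.7% in EAKO and 58.5% in Flox.

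Windows of distal peaks alone had the same median G and C in both lists, 51.7%. Of the strongest distal peaks alone, the first pair in each list with at most 0.995% of the window repeat-masked is shown. These were Zbtb20 (chr16:43458699-43458899) and Twist2 (chr1:91674386-91674586) for EAKO, and Fam19a2 (chr10:124138563-124138763) and Apbb2 (chr5:66542618-66542818) for Flox, named by the nearest TSS. Stronger peaks with more repeat, such as Gtpbp4 (42.8%) in EAKO and Chl1 (31.3%) in Flox, were passed over. Capitals mark the AP-1 letters TGANTCA and the ETS letters CCGGAA on either strand.
Zbtb20: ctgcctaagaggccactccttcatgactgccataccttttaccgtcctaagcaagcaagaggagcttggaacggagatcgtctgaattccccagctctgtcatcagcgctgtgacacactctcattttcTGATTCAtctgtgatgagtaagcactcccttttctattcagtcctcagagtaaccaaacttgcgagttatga
Twist2: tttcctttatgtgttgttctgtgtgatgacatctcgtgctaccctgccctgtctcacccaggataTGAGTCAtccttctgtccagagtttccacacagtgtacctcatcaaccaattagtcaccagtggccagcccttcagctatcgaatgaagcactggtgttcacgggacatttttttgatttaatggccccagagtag
Fam19a2: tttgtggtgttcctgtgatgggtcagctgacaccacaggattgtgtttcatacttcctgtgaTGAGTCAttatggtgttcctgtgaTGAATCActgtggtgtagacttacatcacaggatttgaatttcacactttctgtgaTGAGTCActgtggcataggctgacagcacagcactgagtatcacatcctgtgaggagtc
Apbb2: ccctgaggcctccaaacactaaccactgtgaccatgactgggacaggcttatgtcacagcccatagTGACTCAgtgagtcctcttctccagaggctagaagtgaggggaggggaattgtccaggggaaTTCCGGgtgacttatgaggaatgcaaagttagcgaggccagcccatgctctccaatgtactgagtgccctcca
Each of these 4 windows held the AP-1 letters, and of the 4 only that of Apbb2 held the ETS letters. The shares over all windows are given with the motif counts.

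The labels were checked at Ets1 itself, on chromosome 9. Between exon 2 and exon 7 (chr9:32728675-32752917) EAKO adipocytes had 3 H3K27ac peaks with −log10 q of 2.89, 5.91 and 6.34, and none of them touched a floxed exon. Flox adipocytes had 5 there, of 6.09, 15.6, 18.8, 3.89 and 31.6. Elsewhere in the gene the lists had 13 peaks each, with a median −log10 q of 8.71 in EAKO and 9.88 in Flox adipocytes. The highest there was 29.0 in EAKO and 49.6 in Flox. ATAC-seq, which marks open chromatin, gave 2 peaks in EAKO and 4 in Flox adipocytes between those exons, and 12 in each elsewhere in Ets1. Those elsewhere were also weaker in EAKO, with a median −log10 q of 18.1 against 32.2 in Flox. The part of the gene that Cre removes thus carried fewer calls in the EAKO library, but was not empty. Whether these calls came from cells without Cre was not tested.

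The adipocyte label was only partly borne out by the markers. Of 12 adipocyte genes, 6 had a promoter peak in both lists (Pparg, Fabp4, Lipe, Pnpla2, Cebpa and Lpl), Plin1 had one in EAKO alone with a −log10 q of 1.91, and Retn in Flox alone with 4.57. Adipoq, Lep, Cidec and Cfd had none in either. Markers of other cell types had promoter peaks too: 10 of 12 adipose progenitor genes, 7 of 10 endothelial and 7 of 8 mural genes had one in both lists, as had 3 of 10 macrophage and 3 of 10 lymphocyte genes, against 58.7% of all protein-coding genes. Among the defining markers, Pdgfra of progenitors (35.9 in EAKO and 19.8 in Flox), Pecam1 of endothelium (16.4 in EAKO and 10.4 in Flox) and Acta2 of mural cells (57 in EAKO and 51.4 in Flox) were called in both, and Adgre1 and Cd68 of macrophages in neither. Over the lists, 5 of the 7 endothelial genes marked in both ranked lower in EAKO, with a median change of -11.6 percentiles, as did 5 of the 7 mural genes (-4.6), 5 of the 10 progenitor (-0.6), 2 of the 3 macrophage (-22.9), 0 of the 3 lymphocyte (4.5) and 2 of the 6 adipocyte genes (1.5), against -1.2 for all genes. Cdh5 of endothelium, for example, had 4.70 in EAKO and 7.71 in Flox. In EAKO, 0 of 3 mesothelial (8.6) and 0 of 1 epithelial genes (23.0) ranked lower, and 2 of 3 Schwann cell (-1.5) and 2 of 2 muscle genes (-2.6). Of 6 mesothelial genes, 2 had a promoter peak in EAKO alone, Upk3b (3.82) and Lrrn4 (6.21), against 1.75% of all genes. The part of other cell types in the results below was not tested. In bulk chromatin fewer cells of a type and less mark per cell cannot be told apart.

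H3K27ac peaks alone were more numerous in Flox than in EAKO adipocytes, at promoters and at distal sites. Of the EAKO peaks, 19417 of 74682 (26.0%, 95% interval 25.7% to 26.3%) were alone, and of the Flox peaks 31214 of 86834 (35.9%, 35.6% to 36.3%). At promoters, 1976 of 17855 EAKO peaks (11.1%) and 3650 of 19189 Flox peaks (19.0%) were alone. At distal sites these were 17441 of 56827 EAKO peaks (30.7%) and 27564 of 67645 Flox peaks (40.7%). The lists covered a like length, 40.1 Mb in EAKO and 41.2 Mb in Flox, since EAKO peaks were wider, with a median of 442 bp against 381 bp in Flox.

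With equal numbers of peaks the distal difference turned round, and the promoter difference became smaller. The 74682 best peaks of each list were taken, which kept every EAKO peak and dropped only the weakest Flox peaks. Of these, 29.7% of EAKO and 29.5% of Flox peaks were alone. Of distal peaks, 35.0% (19915 of 56827) were then alone in EAKO and 33.9% (19214 of 56655) in Flox. Of promoter peaks, 12.8% (2281 of 17855) were alone in EAKO and 15.7% (2825 of 18027) in Flox. EAKO thus had the higher distal share by 1.1 percentage points and Flox the higher promoter share. When the lists were instead cut to the same covered length, Flox stayed higher in both, with 31.9% of EAKO and 38.4% of Flox distal peaks and 11.5% and 17.8% of promoter peaks alone. The distal order therefore rested on how the lists were matched.

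**Figure D1:**
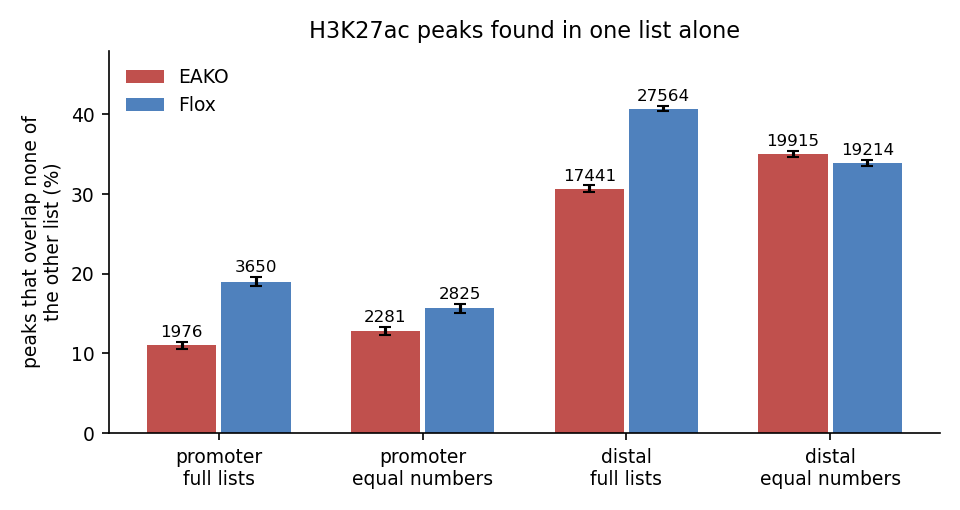
Share of H3K27ac peaks that overlap no peak of the other list, in percent, for promoter and distal peaks, with the full lists and with the 74682 best peaks of each. Bars are single libraries (EAKO red, Flox blue), error bars Wilson 95% intervals, and the number over each bar is the count of peaks alone. Flox is higher in both classes with full lists, and only at promoters with equal numbers.

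Peaks alone were the weak peaks of each list. Among distal peaks, those alone in EAKO had a median −log10 q of 3.73 against 7.19 for EAKO peaks shared with Flox, and those alone in Flox 3.43 against 7.50. Of distal peaks below the 25th percentile of their own list, 59.8% were alone in EAKO and 71.6% in Flox. Between the 75th and 90th percentiles these shares were 0.460% (32 of 6955) in EAKO and 3.14% (266 of 8467) in Flox, and above the 90th percentile 2 of 2574 and 11 of 2846. Among promoter peaks, 51.2% were alone in EAKO and 66.9% in Flox below the 25th percentile, and 5.34% and 20.2% between the 50th and 75th. Between the 75th and 90th, 5 of 4247 EAKO promoter peaks (0.118%) were alone, against 221 of 4558 Flox promoter peaks (4.85%, 4.26% to 5.51%). Above the 90th percentile 0 of 4895 EAKO promoter peaks were alone, which allows a share of up to 0.0613%, and 11 of 5837 Flox promoter peaks were. Of promoter peaks above the 75th percentile, those seen in a single library were thus 5 in EAKO and 221 and 11 in Flox.

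**Figure D2:**
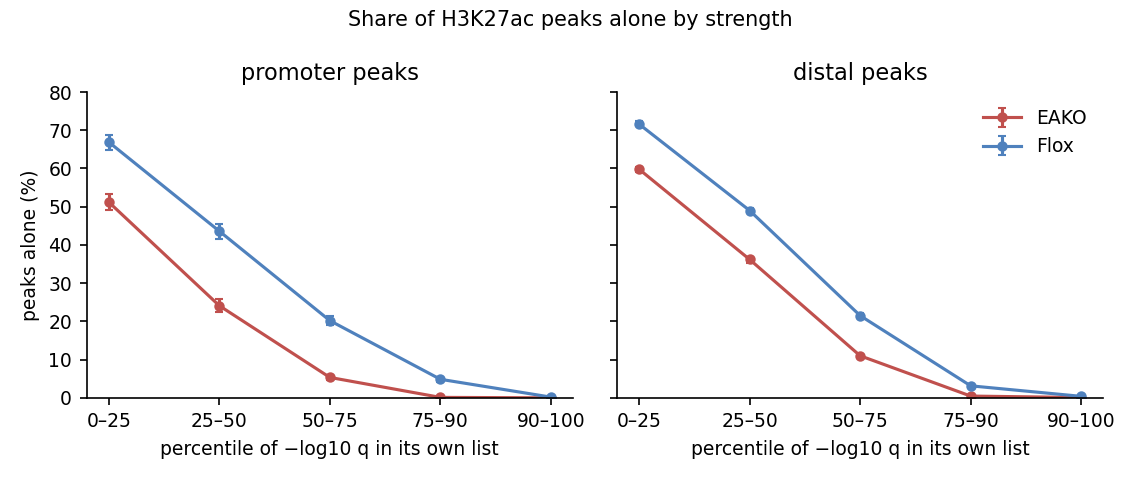
Share of H3K27ac peaks alone, in percent, by the percentile of −log10 q within the peak's own list, for promoter (left) and distal (right) peaks. Points are single libraries (EAKO red, Flox blue) and bars Wilson 95% intervals. Both lines fall towards 0, and at the 75th to 90th percentiles 4.85% of Flox promoter peaks are still alone, against 0.118% of EAKO promoter peaks.

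The strong Flox promoter peaks lay in GC-rich sequence. Of promoter peaks with 65% to 70% G and C at the summit, 2.59% were alone in EAKO and 10.7% in Flox. At 70% to 75% these shares were 1.15% (10 of 869) in EAKO and 19.1% (457 of 2398) in Flox, and from 75% upwards 0 of 53 and 90 of 278 (32.4%, 27.1% to 38.1%). The 0 of 53 allows up to 5.66%. Below 55% the shares were 24.2% in EAKO and 32.0% in Flox. The Flox list thus held 2676 promoter peaks with 70% or more, of which 20.4% were alone, and the EAKO list 922, of which 1.08% were. When equal numbers of peaks were compared and only those under 65% G and C were counted, 16.5% of EAKO promoter peaks (2154 of 13079) and 17.4% of Flox promoter peaks (1904 of 10955) were alone. This count was added after the base composition had been seen. The few distal peaks with 70% to 75% also differed, with 5.81% alone in EAKO (5 of 86) and 26.5% in Flox (60 of 226).

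**Figure D3:**
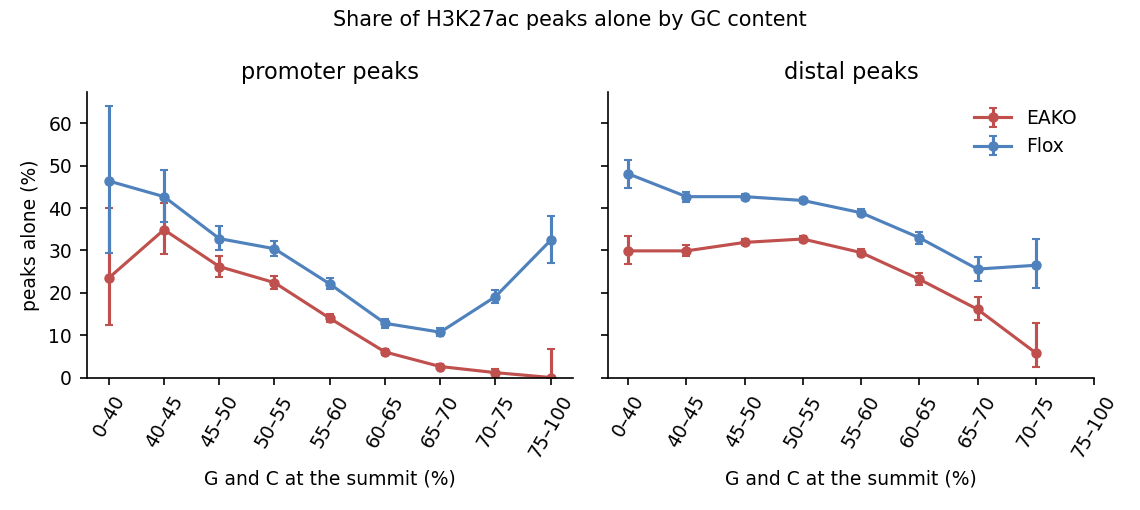
Share of H3K27ac peaks alone, in percent, by the percentage of G and C in the 201 bp at the summit, for promoter (left) and distal (right) peaks of the full lists. Points are single libraries (EAKO red, Flox blue), bars are Wilson 95% intervals, and bins of fewer than 20 peaks are left out. At promoters the EAKO line goes down to 0 at the GC-rich end while the Flox line turns up to 32.4%.

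The open chromatin of the same genotypes showed a like gap in base composition. Of ATAC promoter peaks with 70% or more, 0.557% were alone in the EAKO list and 14.5% in the Flox list, and of those under 55%, 6.71% and 12.5%. In the knock-in pair of the series, adipocytes with forced Ets1 (EA) and their controls (EC), H3K27ac promoter peaks with 70% or more were alone in 19.5% of EA and 18.3% of EC peaks. Fewer GC-rich promoters were thus called in EAKO than in Flox by both assays, while the EA and EC shares lay close together. The part of base composition in the promoter result was not tested.

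Promoter peaks present in both lists were ranked alike overall. Among 14063 pairs of 1 EAKO and 1 Flox peak at promoters, the Spearman correlation of the within-list percentiles was 0.89 across pairs, and 0.75 over 37841 distal pairs. Peaks of a pair share their sequence and are not replicates. The median change in percentile, EAKO minus Flox, was -1.4 at promoters and -2.0 at distal sites. At promoters with 55% to 60% G and C it was -0.5 and with 70% to 75% it was -8.0, where 8.66% of the 797 pairs ranked higher in EAKO. Over 31 pairs from 75% upwards it was -27.5. Over 64 distal pairs with 70% to 75% it was -8.1.

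Some shared promoters changed rank far more than this. The largest losses in EAKO were at Gtf2a2 (a subunit of the general factor TFIIA, percentile 0.0167 in EAKO and 88.6 in Flox), Eefsec (selenocysteine elongation factor, 2.80 and 87.9) and Hoxa10 (a homeobox patterning gene, 1.66 and 86.2). Wdsub1, Cdyl (a chromodomain corepressor), Ssh1 (a cofilin phosphatase), Gli3 (a Hedgehog effector) and Trp53rka followed, with changes of -74.5 to -78.9 percentiles, EAKO minus Flox. Among the largest gains were March1 (a ubiquitin ligase, 72.5 in EAKO and 4.74 in Flox) and Ints6l (an Integrator subunit, 64.6 and 2.45). They were followed by Dlg5, Fxyd2, Igsf3, Wnt5a (a non-canonical Wnt ligand, 69.1 and 8.60) and Sulf2 (a heparan endosulfatase). Summit windows of the 8 losses held 56.5% to 74.4% G and C, and those of the gains 53.5% to 60.7%.

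At the level of genes, most promoters carried the mark in both libraries. Of 21938 protein-coding genes, 12879 (58.7%) had a promoter peak in both lists and 7540 (34.4%) in neither. A promoter peak was found in EAKO alone at 383 genes (1.75%) and in Flox alone at 1136 (5.18%). With equal numbers of peaks these were 521 (2.37%) and 907 (4.13%). With equal numbers and under 65% G and C they were 464 and 559. Of the 383 genes, 12 had a peak with a −log10 q of 12 or more, and in each of the 12 the EAKO peak met a Flox peak that stopped short of the promoter window. Of the 1136 genes, 80 had such a peak, and at 71 of these it overlapped no EAKO peak at all. The median G and C of the 80 was 68.9%, and 60 of them (75%) had 65% or more, against 50.6% of the 10761 genes of that strength with a peak in both lists.

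The strongest Flox promoters without an EAKO counterpart were a mixed group of genes. At Emc8 (a subunit of the ER membrane protein complex) and Gm27021 the peak at chr8:120667718-120668774 had a −log10 q of 46.9 in Flox, and the nearest EAKO peak was 3155 bp away. No ATAC peak was called there in EAKO adipocytes, against one of 40 in Flox adipocytes, and Ets1 peaks of 12.6 and 52.7 were called there in cold-exposed adipocytes and in cultured beige adipocytes. Cox4i1, whose promoter window holds the same peak, had another promoter peak in EAKO and so counted as marked in both. Gcc2 (a golgin, chr10:58255329-58255728) had 38.8 in Flox with the nearest EAKO peak at 27150 bp. Pom121 (a nuclear pore membrane protein, chr5:135393985-135394298) had 32.2 in Flox, and its ATAC peak of 29.8 in Flox was missing in EAKO too. Rnf111 (a ubiquitin ligase of TGF-beta signalling, chr9:70503737-70503935) had 31.8 and Nup210 (a nucleoporin, chr6:91116863-91117208) 30.8 in Flox, with ATAC peaks in both genotypes. These 6 genes had windows of 64.2% to 75.6% G and C.

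The other 4 of the 10 strongest Flox genes were a matter of peak edges. At Cpeb4 (cytoplasmic polyadenylation, 83.7 in Flox), Sft2d3 (vesicle transport, 71.7), Jrkl (56.4) and Zmynd10 (assembly of ciliary dynein, 29.7) the Flox peak overlapped an EAKO peak that missed the window. The 10 strongest EAKO genes were all of this kind. Gm20479 had 37.2, Serinc2 34.5, Egr3 (an immediate early factor) 32.9, Tmem69 30.2, Gsg1 27.4 and Mtfp1 (mitochondrial fission) 23.6 in EAKO, and Erv3, Zkscan7 and Hcrt had 22.6 down to 13.1. Among peaks that overlapped none, the strongest at a promoter in EAKO included Selenof with 17.3 and Tef with 13.6, chosen after their values were seen. Both genes also had a promoter peak in Flox.

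Other readouts stood apart between EAKO-alone and Flox-alone promoter peaks. ATAC peaks of EAKO adipocytes overlapped 36.5% of EAKO-alone and 43.4% of Flox-alone promoter peaks. ATAC peaks of Flox adipocytes overlapped 40.5% and 54.5%. Ets1 peaks of cold-exposed adipocytes overlapped 2.48% (1.88% to 3.26%) of EAKO-alone and 9.48% (8.57% to 10.5%) of Flox-alone promoter peaks, and Ets1 peaks of cultured beige adipocytes 6.07% and 14.3%. All were far below the promoter peaks shared by the lists, of which 37.1% of EAKO peaks met an Ets1 peak of cold-exposed and 58.2% one of beige adipocytes. The median −log10 q of the promoter peaks alone was 3.60 in EAKO and 4.15 in Flox, and their median G and C 54.7% in EAKO and 58.5% in Flox. Their part in these overlaps was not tested.

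At distal sites the same overlaps lay close together in both lists. ATAC peaks of EAKO adipocytes overlapped 28.5% of EAKO-alone and 26.4% of Flox-alone distal peaks, and ATAC peaks of Flox adipocytes 30.3% and 29.5%. A distal site acetylated in EAKO alone was open in EAKO alone in 3.12% and open in Flox alone in 4.96% of cases. A distal site acetylated in Flox alone was open in EAKO alone in 2.55% and in Flox alone in 5.67%. Ets1 peaks of cold-exposed adipocytes overlapped 2.27% of EAKO-alone, 2.70% of Flox-alone and 5.96% of shared EAKO distal peaks. For beige adipocytes these shares were 4.20%, 4.86% and 29.8%. At a −log10 q of 6 to 12, 50.9% of EAKO-alone and 53.1% of Flox-alone distal peaks met an ATAC peak of EAKO adipocytes, against 75.2% of shared EAKO and 75.7% of shared Flox peaks. Peaks alone were thus less often open than shared peaks of the same list in that class of −log10 q.

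**Figure D4:**
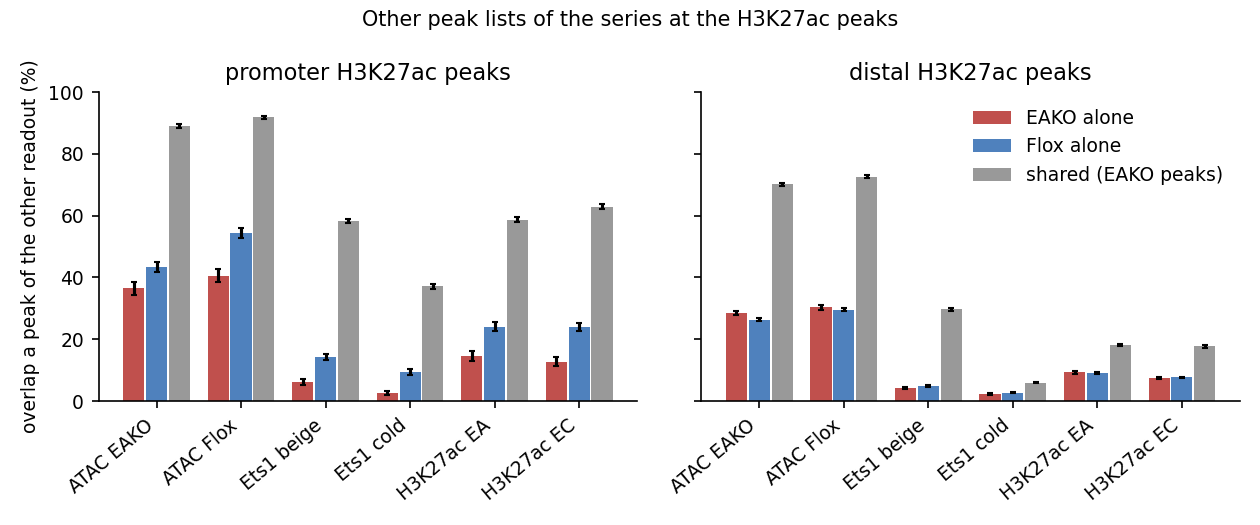
Share of H3K27ac peaks that overlap a peak of another list of the series, in percent, for promoter (left) and distal (right) peaks alone in EAKO (red), alone in Flox (blue) and shared (grey, EAKO peaks). Error bars are Wilson 95% intervals and each list is a single library. Red and blue bars differ at promoters and lie close together at distal sites, and shared peaks are highest throughout.

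The letters at distal summits were also close between the lists. The AP-1 letters TGANTCA stood in 11.5% of EAKO-alone and 11.8% of Flox-alone distal windows, in 22.2% of shared EAKO and 23.7% of shared Flox windows, and in 5.92% to 6.24% of windows 1 kb away from them. The ETS letters CCGGAA stood in 2.44% of EAKO-alone, 2.58% of Flox-alone and 3.08% of shared EAKO distal windows, with 2.02%, 1.71% and 2.02% at 1 kb. At promoters the ETS letters stood in 3.80% of EAKO-alone and 6.77% of Flox-alone windows, against 13.3% of all EAKO and 13.9% of all Flox promoter windows, and 4.10% and 4.11% of windows 1 kb away from the peaks alone. The GC box GGGCGG stood in 11.6% of EAKO-alone and 25.6% of Flox-alone promoter windows, against 33.4% of all EAKO and 38.3% of all Flox ones, and 9.97% and 9.18% at 1 kb from the peaks alone. All motifs were searched on both strands, and letters in a window are no evidence of binding.

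The strongest distal peaks alone were of different kinds in the lists. In EAKO the first (chr13:9011708-9012168, −log10 q 83.9) lay in an intron, and its nearest TSS, 15713 bp away, was that of Gtpbp4. Of the 7 other lists, 6 also held this site. Tnks2 (tankyrase 2, 30.1), Zbtb20 (a zinc finger repressor, 24.0), Twist2 (a mesenchymal basic helix-loop-helix factor, 19.3) and Fndc3b (19.1) followed. The others were named by Ctso, St3gal1, Acaa2 (mitochondrial thiolase of fatty acid oxidation), Il18 and Tmem135, between 16.4 and 15.9. Each site is named by its nearest TSS, which lay 126975 bp away for Twist2 and 511457 bp for St3gal1. Of these 10 sites, 7 had an ATAC peak in EAKO and 8 in Flox adipocytes. In Flox the first 5 were near Adgre5 (190), Tmem267 (105), Wls (91.1), Lama1 (81) and Chl1 (75.3). They were 203 to 237 bp wide, and 4 of them were 89.6% to 98.0% repeat-masked. Both Ets1 lists of adipocytes from mice, at room temperature and in the cold, held all 5. So did the H3K27ac list of EA adipocytes, and that of EC held all but the site near Lama1. The sites near Adgre5, Lama1 and Chl1 had no ATAC peak in either genotype. The next, named by the nearest TSS, were Fam19a2 (36.3, 873678 bp away), Apbb2 (36.1), Lima1 (32.9), Cd109 (32.9) and Mnat1 (31.0). Each of these was open in both genotypes, and 4 had no repeat in the window.

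Among shared distal sites, ranks moved in both directions. Named by the nearest TSS, the largest loss in EAKO was that of Adcyap1 (324236 bp away, percentile 1.05 in EAKO and 80.3 in Flox). Prag1, Sema5a, Nup188, Zfp947, Pcdh11x, Lhfp and Trio followed. The largest gain was that of 9330182O14Rik (202479 bp away, percentile 77.6 in EAKO and 2.07 in Flox). Zfp90, Robo1 (121390 bp), Gm5148 (275627 bp), Cab39l, Saxo1 (122519 bp), Hpse2 and Myom2 followed. The 8 losses, EAKO minus Flox, ran from -71.3 to -79.3 percentiles and the 8 gains from 65.9 to 75.5.

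Distal peaks alone were then counted by the nearest gene within 100 kb, as EAKO alone minus Flox alone. The balance was at least +3 at 280 genes (1.28%) and at most -3 at 1364 (6.22%). With equal numbers of peaks the order turned, with 666 genes (3.04%) at +3 or above and 524 (2.39%) at -3 or below. The balance with equal numbers is therefore given as well. Since equal numbers kept every EAKO peak and dropped only Flox peaks, a balance could then rise or stay but not fall. A positive balance is thus not checked by this setting.

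The genes with the highest balance, picked by that count, have varied roles. Elmo1 (engulfment and Rac activation, chromosome 13) had 35 distal peaks in EAKO and 26 in Flox, of which 14 and 5 were alone. All 19 lay in the gene, and the balance of +9 was +10 with equal numbers. Bcl2l11 (the pro-apoptotic protein BIM, chromosome 2) had 7 peaks alone in EAKO, with −log10 q of 2.22 to 10.8, and 0 in Flox. Vstm4 also had 7 in EAKO, all inside the gene, and 0 in Flox. The others were Paxip1 (a DNA damage and histone methyltransferase adaptor, +8), Slc6a6 (the taurine transporter, +7), Maml2 (a Notch coactivator, +7), Ltbp2 (a latent TGF-beta binding protein, +7), Mast4, Arhgef10l and Rin3 (+6 each). The 10 balances were +7 to +10 with equal numbers, a setting in which they could not fall. Of the 10 EAKO-alone peaks of Paxip1 none met an ATAC peak. Of the 7 of Vstm4, 0 met one in EAKO adipocytes, whereas 8 of the 9 of Maml2 did. EAKO-alone peaks of these 10 genes were weak, with a median −log10 q of 2.62 to 4.53 per gene, and none exceeded 10.9. Alone were 15 of the 43 EAKO distal peaks of Mast4 and 7 of the 9 of Vstm4, against 30.6% over all genes.

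The genes with the lowest balance were picked by the same count. Nav2 (neuron navigator 2, chromosome 7) had 38 distal peaks in EAKO and 55 in Flox, of which 13 and 31 were alone, a balance of -18 that was -10 with equal numbers. Ebf1 (a transcription factor of adipocyte differentiation, chromosome 11) had 17 and 29, of which 4 in EAKO and 15 in Flox were alone, all within the gene (-11, and -9 with equal numbers). Pappa2 (a protease of IGF-binding proteins) had 1 alone in EAKO and 13 in Flox (-12 and -10). Hs3st3b1 (heparan sulfate sulfation) had 1 and 12 (-11 and -8). Ano6 (a phospholipid scramblase), Cacna2d3 (a calcium channel subunit) and Rbfox3 (a neuronal splicing factor) stood at -11 and kept -6 to -8. Lpp (a focal adhesion protein, -12), Cmip (-11) and Auts2 (-11) came to -3, -1 and 0. No Flox-alone peak of these 10 genes exceeded a −log10 q of 14.2, and their medians were 2.68 to 4.20.

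**Figure D5:**
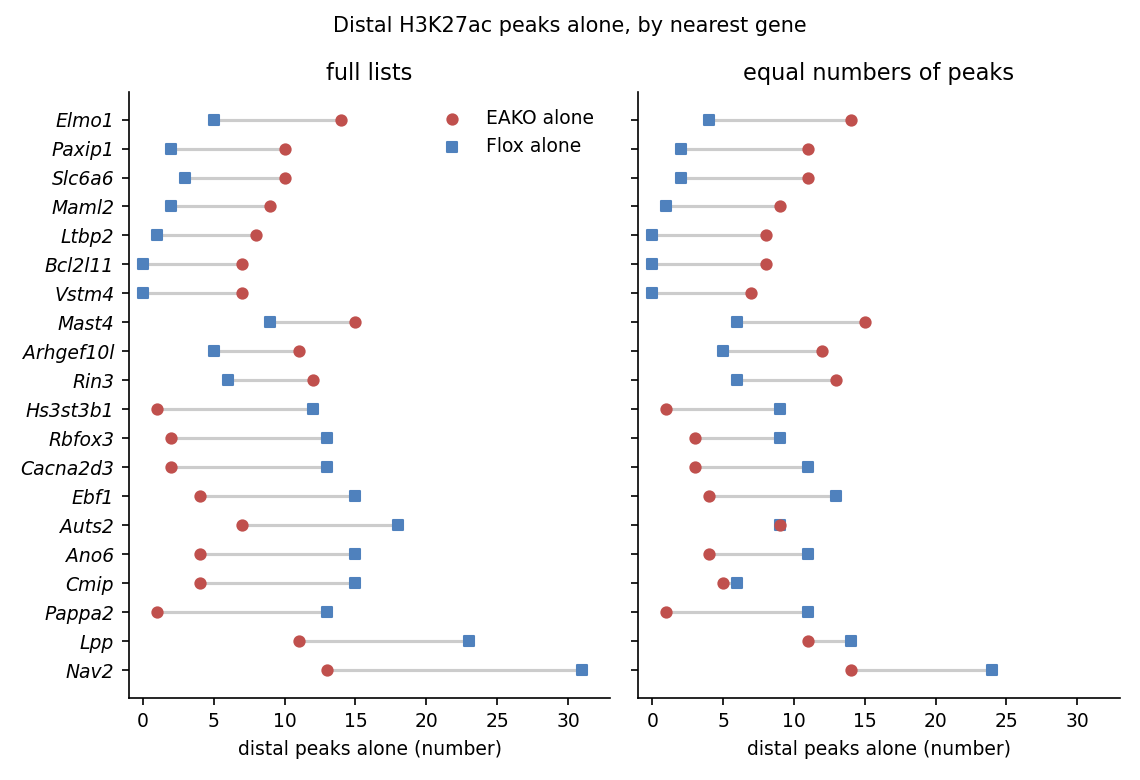
Number of distal H3K27ac peaks alone in EAKO (red circles) and in Flox (blue squares) at the 10 genes with the highest and the 10 with the lowest balance, with the full lists (left) and with equal numbers of peaks (right). Each point is a single library and lines join the values of a gene. Equal numbers keep every EAKO peak, so a gap towards EAKO, as at Bcl2l11 (8 and 0), cannot shrink. Of the gaps towards Flox, that of Ebf1 (4 and 13) stays wide and that of Auts2 (9 and 9) closes.

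Adipoq, whose promoter drives the Cre, lacked a promoter peak in both lists. It had 0 distal peaks in EAKO and 4 in Flox, at 12715 to 21809 bp from its TSS, with −log10 q of 3.4, 4.65, 4.20 and 2.71. All 4 sites had an ATAC peak in both genotypes. With equal numbers 3 of the 4 remained.

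The study drew attention to autophagy and mitochondrial genes from its Ets1 peaks, which are other libraries of this series. It followed them with qPCR and luciferase assays. From H3K27ac of the knock-in and knock-out mice, this pair included, the study reported no effect of Ets1 on the mark at the promoters of these genes. It also reported that Ets1 slightly lowered the genome-wide read signal of H3K27ac and of ATAC. Peak numbers here went in the opposite direction, with fewer in EAKO than in Flox for H3K27ac (74682 and 86834) and ATAC (82839 and 88977). Numbers of peaks and read signal are unlike measures. Autophagy genes break down mitochondria, and the respiratory complexes carry oxidative phosphorylation. Of the 10 autophagy genes that the study named, all had a promoter peak in both lists, as had its 6 mitochondrial genes, all 46 of a wider autophagy list, all 36 of complex I and 38 of 40 of complexes II to V, against 58.7% of all genes. Most were among the strongest peaks: the median percentile was 93.8 in EAKO and 95.8 in Flox for the 10 autophagy genes, and 87.6 and 90.3 for all 12879 genes with a peak in both. Ulk1 (the kinase that starts autophagy) had a −log10 q of 20.5 in EAKO and 49.4 in Flox, which was percentile 85.1 and 95.8. Atg5 had 64.5 and 92.7 (98.1 and 99.2), and Atg9a 47.0 and 44.8 (96.0 and 94.9). Of the 10, 9 ranked lower in EAKO, as did 8036 of the 12879.

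Of the mitochondrial genes, Atp5a1 (ATP synthase, 10.3 in EAKO and 22.4 in Flox) went furthest, to percentile 68.6 in EAKO against 86.4 in Flox, with a window of 70.6% G and C. Ndufv2 of complex I was 7.9 percentiles lower in EAKO, and Tfam (mitochondrial DNA maintenance), Cox8a and Sdhb 0.2 to 3.4 lower. Uqcr10 of complex III was 0.4 higher. The median change was -0.9 for the autophagy genes, -2.8 for the 6 mitochondrial genes, 0.2 for complex I and -1.2 for all genes.

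The 46 autophagy genes had 28 distal peaks alone in EAKO and 62 in Flox, or 19.6% of 143 and 34.1% of 182, against 30.6% and 39.7% over all genes. With equal numbers they had 42 in EAKO and 38 in Flox. Uvrag had 17 distal peaks in EAKO and 25 in Flox, and its balance was -6 with full lists and -1 with equal numbers. Pik3c3 had -5 and Atg5 -4 with full lists, and both had -3 with equal numbers.

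Thermogenic genes let beige fat burn fuel as heat. Of 30, 20 had a promoter peak in both, 1 in EAKO alone and 4 in Flox alone, against 58.7%, 1.75% and 5.18% of all genes. In Flox alone were Cidea (a lipid droplet protein, −log10 q 2.04), Kcnk3 (a potassium channel, 3.12), Otop1 (a proton channel, 3.69) and Adrb1 (the beta-1 adrenergic receptor, 2.71), and in EAKO alone Tbx1 with 2.76. All were weak, and those of Cidea and Adrb1 were not among the equal numbers. Prdm16, the coregulator of the brown and beige fate, had 29 distal peaks in EAKO and 25 in Flox, of which 14 and 10 were alone, so its balance was +4 and +11 with equal numbers. Kcnk3 had +3 and +4. Neither balance could fall with equal numbers. Ebf2 (a brown and beige lineage factor) went the other way, with 2 alone in EAKO and 6 in Flox, a balance of -4 that was -3 with equal numbers. Over the 30 genes, 41 distal peaks were alone in EAKO and 46 in Flox, and 45 and 32 with equal numbers.

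Among genes of the adipocyte programme, 22 of 24 adipogenic transcription factors had a promoter peak in both lists. Foxo1 had one in Flox alone with 4.72. Of 32 genes of lipid synthesis and storage 26 were marked in both, and of 25 genes of lipolysis and fatty acid oxidation 23, against 58.7% of all genes. Mgll (monoacylglycerol lipase) had a promoter peak in Flox alone with 3.43. Distal peaks of the lipolysis and oxidation genes were alone in 18 of 57 cases in EAKO (31.6%) and 39 of 78 in Flox (50.0%), against 30.6% and 39.7% over all genes, and in 21 and 32 cases with equal numbers. Genes of mitochondrial biogenesis had 16 alone in EAKO (30.2%) and 37 in Flox (49.3%), and 17 and 27 with equal numbers. There Nrf1 (a factor of nuclear genes for mitochondria) kept a balance of -5 and Gabpa, an ETS factor, had -4 with full lists and -2 with equal numbers. Other lists went the other way with equal numbers. The lipid synthesis and storage genes had 35 alone in EAKO and 37 in Flox with full lists, and 38 and 27 with equal numbers. The adipogenic transcription factors had 47 and 65 with full lists, and 55 and 47 with equal numbers. Over all genes the equal-number counts were 16519 in EAKO and 15433 in Flox.

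Among 26 genes of insulin signalling 24 had a promoter peak in both lists, against 58.7% of all genes, and 2 in Flox alone, against 5.18%. Grb10 (an inhibitor of the insulin receptor) had a promoter peak in Flox alone with 5.87 and a window of 71.6% G and C. Igf1 had 0 distal peaks alone in EAKO and 5 in Flox, and Grb14 0 and 6, and with equal numbers their balances were -4 and -5. Over the 26 genes, 56 of 220 distal peaks were alone in EAKO (25.5%) and 83 of 248 in Flox (33.5%), both below all genes (30.6% and 39.7%). With equal numbers the list had 60 alone in EAKO and 55 in Flox. Of 32 collagen and matrix genes 29 were marked in both, and Col3a1 (6.03), Col4a5 (5.00) and Timp2 (9.0) in Flox alone. Col5a2 had 1 distal peak alone in EAKO and 9 in Flox, and Col6a3 8 and 3, and with equal numbers their balances were -5 and +6. Collagens are also made by progenitor cells. Distal peaks of the 12 progenitor markers were alone in 27.3% of EAKO and 35.1% of Flox cases, close to those of all genes (30.6% and 39.7%), and mural markers in 19.2% and 36.8%.

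Of 26 ETS genes, 20 were marked in both lists, 5 in neither and Spdef in Flox alone with 3.32, against 58.7%, 34.4% and 5.18% of all genes. Etv6 (a repressor of the family) had 5 distal peaks alone in EAKO and 15 in Flox, a balance of -10 that was -5 with equal numbers. Over the 26 ETS genes, 30.4% of distal peaks were alone in EAKO and 39.4% in Flox, against 30.6% and 39.7% over all genes. With equal numbers they had 55 alone in EAKO and 56 in Flox. Of 32 histone acetyltransferases and deacetylases 31 were marked in both, and Kat2a (GCN5) in Flox alone with 3.46. Crebbp (CBP) was marked in both, with 10.7 in EAKO and 35.3 in Flox and a window of 74.1% G and C. Cxcl10 (an interferon-induced chemokine, 10.7) and Egr3 (32.9, at a peak edge) were the strongest list members with a promoter peak in EAKO alone. Proteasome genes, 31 of 31, were marked in both.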

How the data were processed

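H3K27ac was profiled by CUT&Tag in EAKO and Flox adipocytes, 1 library each. Per the study's methods, the authors trimmed reads with trimmomatic, aligned them to mm10 with BWA and called peaks with MACS2 at a q-value under 0.05. SAMtools and deepTools are also named in the submitters' processing notes. Whether peaks were called against an IgG library, and whether regions were blacklisted, is not given in the sources used here. The deposited lists hold, per peak, a display score (not used), the fold enrichment ratio at the summit, the −log10 p-value and −log10 q-value of MACS2, and the summit position. Read totals are not in the peak lists. The study's reporting summary gives them as nearly equal, slightly lower for EAKO, and they entered no computation. The authors' lists of ATAC, Ets1 and knock-in H3K27ac peaks were read in the same way, each counted as 1 library.

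Overlaps were made with bedtools 2.31.1 (at least 1 bp), in Python 3.11.15. Promoters were 1 kb on each side of 93513 TSS of 21938 protein-coding genes (GENCODE M21, the same build), and sequence was from the RefSeq copy of that build. Overlap, promoter and distance steps were tested on simulated peaks. In each list the 10 genes or peaks with the highest −log10 q alone, the 10 genes at each end of the balance and the 8 pairs at each end of the percentile change were named, with Ets1, Adipoq and members of 32 gene lists (1 gene was not matched). The comparison, the gene lists and the tests were chosen with earlier results of these data known. In all, 10 alternatives were planned and 3 added after seeing the data. Some items that the rule would name are not reported here.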

Additional observations from a re-analysis of the deposited data

How the results depend on the processing

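No paired analysis was possible because each group has 1 library, and none could be left out. Of 114 counts under alternatives, 97 stayed within 1.5 times the reported count. With equal numbers of best peaks, genes by balance came to 666 in EAKO and 524 in Flox, and the difference EAKO minus Flox turned to 0.2 percentage points for all peaks, 1.1 for distal peaks and 142 genes for the balance. With equal numbers and G and C under 65%, added after seeing the data, these differences were 0.4, 1.2 and 148, with 667 and 519 genes by balance, and Flox-alone promoter peaks came to 1904 and their genes to 559. Without equal numbers, 744 genes under 65% were marked in Flox alone. At q under 0.001 in both lists, 757 genes had a balance of at most -3. At q under 0.001 in a list and no peak in the other, Flox had 19812 peaks alone, 17216 distal, and 700 such genes. With 50% of either peak, 627 genes were marked in EAKO alone. With the other list within 1 kb, 1257 EAKO promoter peaks were alone. With promoter windows of 3 kb, 3729 EAKO and 5942 Flox promoter peaks were alone. With all genes within 50 kb, 611 genes had a balance of at least +3 and 2317 of at most -3. With both lists at the same covered length the distal difference was -6.5 percentage points and that of genes by balance -651. The study's reporting summary lists nearly equal read totals for both libraries, slightly lower for EAKO. The cause was not tested.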

Other observations

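By chromosome, leaving out Y, 28.0% (X) to 32.0% (2 and 12) of EAKO distal peaks and 38.4% (19) to 42.2% (7 and 16) of Flox distal peaks were alone. Promoter peaks on X were alone in 4.73% of 423 EAKO and 17.0% of 476 Flox peaks. Exonic, intronic and intergenic distal peaks were alone in 33.7%, 30.8% and 29.5% of EAKO and in 42.4%, 40.1% and 41.1% of Flox peaks.

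Flox summits lay nearer to start sites. Within 100 bp of the nearest TSS were 34.6% of EAKO and 39.4% of Flox promoter summits. Olfactory receptor genes, known for their use in the nose, had a promoter peak in both lists at 13 of 1134 genes, in EAKO alone at 6 and in Flox alone at 10. Over all protein-coding genes these shares were 58.7%, 1.75% and 5.18%.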
